A study of Mus musculus with 20 samples.

Results

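Alveolar type 1 cells are the thin, flat epithelial cells that cover most of the gas exchange surface of the lung. The 9 genes Ager, Hopx, Pdpn, Aqp5, Rtkn2, Akap5, Clic5, Scel and Igfbp2, which are known as markers of these cells, were followed here in mouse lung. They were chosen by symbol, and each symbol matched 1 of the 54532 Ensembl gene identifiers in the deposited table. RNA of wild-type mouse lung was sequenced in 20 libraries in 4 groups of 5: a control group, a model group, a group labelled SMD and a group labelled prednisone. Asthma is the disease named in the series title, where SMD stands for Shegan-Mahuang Decoction, a herbal formula; prednisone is a synthetic glucocorticoid. Per the design text, mice were divided at random after 7 days of acclimatization, with 15 mice in each group. The labels and design text do not name the strain, the age, the way the model was made, doses or times of collection, and do not state that the treated groups received the model procedure. The labels do not say which animals the libraries came from, so the p-values here rest on library-to-library spread alone, part of which may be technical.

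Alveolar type 1 cells lie against the capillaries and share a basement membrane with them, and together both form the air-blood barrier. They arise during development and after injury from progenitors that include the cuboidal alveolar type 2 cells, which make surfactant. The transcription factor NKX2-1 and the Hippo pathway effectors YAP and TAZ, which act through TEAD factors, are known to maintain the type 1 identity in mice. The markers fall into surface proteins (Ager, Pdpn, Aqp5), proteins of signalling and the cytoskeleton (Rtkn2, Akap5, Clic5), the structural protein Scel, the nuclear protein Hopx and the secreted protein Igfbp2.

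Values are FPKM, fragments per kilobase of gene, scaled to the mapped fragments of a library, as the authors deposited them, so levels can be compared between genes per length. Differences between groups are log2 fold changes of FPKM + 1, with a standard error (SE), from limma fitted to 15106 genes in all 20 libraries. A gene was called at a Benjamini-Hochberg adjusted p under 0.05. Control replicate 1 had the highest total FPKM, 522361, and the remaining totals ran from 377639 to 446711. Depth cannot be read from these files, so precision rests on the spread between libraries.

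All 9 genes were detected in all 20 libraries, at 8.26 FPKM or more, and all 9 passed the filter on low values. Ager was the most abundant, with a median of 777 FPKM over the 20 libraries, and it ranked between 36 and 62 among all genes of a library. Hopx followed with a median of 265 FPKM. Clic5, Aqp5, Igfbp2, Pdpn and Rtkn2 had medians of 78.1, 67.4, 58.2, 57.0 and 41.3 FPKM. Akap5 and Scel were the lowest, with medians of 27.0 and 12.7 FPKM. The ratio of the highest to the lowest library was 1.51 for Pdpn, 1.52 for Hopx, 1.53 for Clic5 and 1.56 for Ager. It was wider for Akap5 (2.18), Scel (2.43) and Rtkn2 (2.75). In whole lung RNA, fewer cells of a type and less RNA per cell cannot be told apart.

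**Figure D1:**
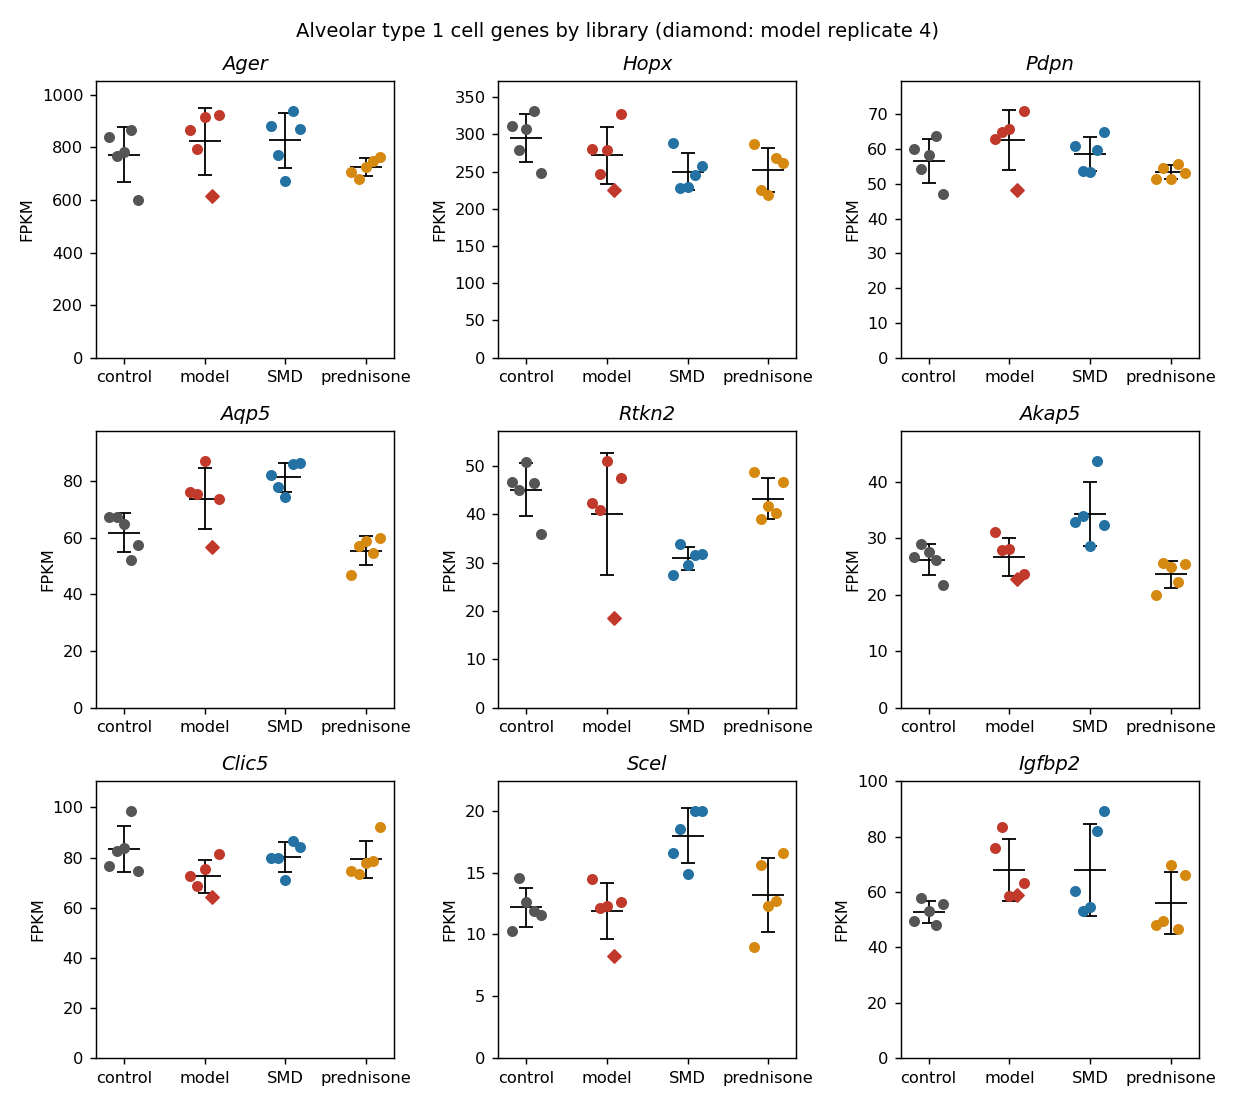
FPKM of the 9 genes in each library (points, 5 per group), with the group mean and SD as bars; each vertical axis starts at 0. The 5 SMD libraries sit between 14.9 and 20 FPKM for Scel, above the 5 model libraries, and between 27.5 and 33.9 FPKM for Rtkn2, below all libraries of other groups except model replicate 4.

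3 libraries were low across most of the genes of their group. Model replicate 4 was the lowest of the model group for 8 of the 9 genes, all but Igfbp2, and its 9 values summed to 1118 FPKM against 1416 to 1622 FPKM in the other model libraries. Rtkn2 was most affected, at 18.6 FPKM against 41.0 to 51.1 FPKM. In the same library, 24 other genes known from alveolar type 1 cells summed to 2139 FPKM (the model group ranged from 2139 to 2558), and 12 alveolar type 2 markers to 21432 FPKM, the median of the group. Blood endothelial markers summed to 646 FPKM there (range in the model group 609 to 706). In the lists of type 2, airway and fibroblast markers, used here and below, 1 gene makes up most of the sum. Medians over the 20 libraries were 14255 FPKM for Sftpc (type 2), 50958 FPKM for Scgb1a1 (airway) and 1864 FPKM for Inmt (fibroblast). Values of the 9 genes whose direction or call changed without model replicate 4 are given below with and without it. Single genes of other lists were not read in that fit. Control replicate 5 was the lowest of its group for 6 of the 9 genes, among them Ager at 601 FPKM, and its 9 values summed to 1153 FPKM against 1398 to 1545 FPKM in the other controls. SMD replicate 3 was also the lowest of its group for 6 of the 9 genes, with a sum of 1226 FPKM against 1350 to 1595 FPKM.

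**Figure D2:**
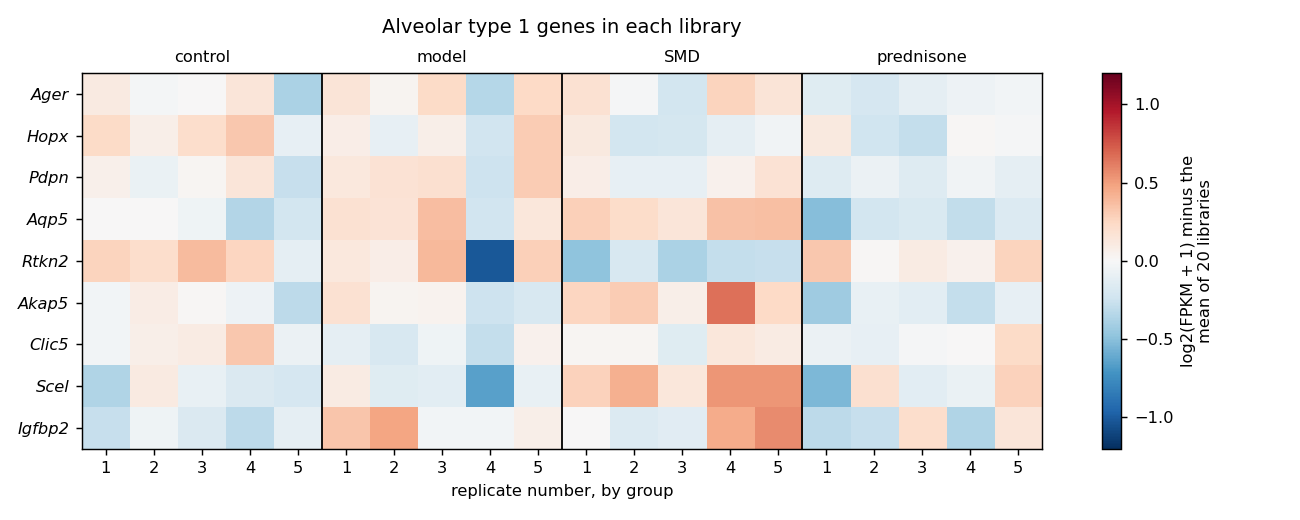
Each cell gives the log2(FPKM + 1) value of 1 gene in 1 library minus the mean of that gene over the 20 libraries (red higher, blue lower), with libraries in columns by group. Model replicate 4 is low in 8 of 9 rows, and the SMD columns are red for Scel and Akap5 and blue for Rtkn2.

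The first comparison, model against control, asks what the asthma model changed. None of the 9 genes was called by limma, against 0.192% of all genes tested, and 3 of the 9 had an unadjusted p under 0.05, against 15.8% of all genes. The median log2 fold change of the 9 genes was 0.03, and that of all genes was 0.055. Igfbp2, a secreted protein that binds insulin-like growth factors, was at 49.4, 58.0, 53.0, 48.2 and 55.5 FPKM in control and at 76.0, 83.6, 58.5, 58.8 and 63.1 FPKM in model libraries. All 5 model libraries lay above the control libraries, but the distance between the nearest values was small. Its log2 fold change was 0.35 ± 0.149 (SE; limma, adjusted p = 0.265), and Igfbp2 was the only one of the 9 genes whose model and control libraries did not overlap, against 3.17% of all genes.

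Aqp5, the water channel of the apical membrane, averaged 61.8 ± 6.76 FPKM in the controls and 73.8 ± 10.9 FPKM under the model (SD, n = 5 each), a log2 difference of 0.25 ± 0.097 (limma, adjusted p = 0.231). Clic5, a chloride intracellular channel protein tied to the actin cytoskeleton, was at 83.4 ± 9.37 and 72.5 ± 6.54 FPKM (log2 fold change -0.20, adjusted p = 0.249). Neither passed, and values of both groups overlapped. Without model replicate 4 the log2 fold change of Aqp5 was 0.34 (limma, adjusted p = 0.0665). Ager, the receptor for advanced glycation end products, averaged 772 ± 104 FPKM in the controls and 823 ± 127 FPKM under the model. Its log2 fold change had a 95% interval from -0.15 to 0.33. Pdpn, the membrane glycoprotein podoplanin, was at 56.6 ± 6.31 and 62.5 ± 8.58 FPKM (interval -0.05 to 0.33).

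Hopx, a homeodomain protein that does not bind DNA itself, averaged 295 ± 32.4 FPKM in the controls and 272 ± 38.3 FPKM under the model (interval -0.34 to 0.09). Reads of its antisense neighbour Hopxos, whose exons share 412 bases with Hopx and whose median was 2.25 FPKM, cannot be told apart without a strand setting, and no label or header names one. For Akap5 and Scel the log2 fold changes were 0.03 and -0.04, and for Rtkn2 -0.23. Without model replicate 4 the values of Scel and Rtkn2 were 0.08 and 0.02, so the direction of Rtkn2 rests on that library. Scel also turned positive without control replicate 2 (0.02). Akap5 turned negative without control replicate 5 (-0.04) or model replicate 1 (-0.03).

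Marker lists of other cell types are given beside these values. Of the 12 alveolar type 2 markers, 0 were called in limma and 10 were higher in the model at an unadjusted p under 0.05, with a median log2 fold change of 0.36. Their summed level was 20298 to 24329 FPKM in model and 14938 to 19368 FPKM in control libraries. Of the 24 other type 1 genes, 0 were called and 20 had positive values, with a median of 0.08 against 0.055 for all genes. Of these 24, 3 had an unadjusted p under 0.05, 1 higher and 2 lower in the model. Blood endothelial markers summed to 609 to 706 FPKM in model and 712 to 867 FPKM in control libraries, with 0 of 12 called and 7 lower at an unadjusted p under 0.05.

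The second comparison, SMD against model, asks how lungs of the decoction group differed. Scel rose, and the other 8 genes did not pass. Among those, Akap5 had the largest positive value (0.34) and Rtkn2 the largest negative one (-0.29). Of the 9 genes, 1 was called in limma, against 2.15% of all genes called either way and 0.245% called higher, and it was also the only one whose groups did not overlap, against 4.62% of all genes. The median log2 fold change of the 9 genes was 0.01, against -0.059 for all genes.

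Scel encodes sciellin, a protein of the cornified envelope in stratified epithelia that is also made by alveolar type 1 cells (chromosome 14, 103513342 to 103612797, GRCm38). It was at 14.5, 12.1, 12.3, 8.26 and 12.6 FPKM in the model libraries and at 16.6, 18.5, 14.9, 20 and 20 FPKM in the SMD libraries. The lowest SMD library lay just above the highest model library. Scel rose from 11.9 ± 2.27 to 18 ± 2.23 FPKM (SD, n = 5 each), a log2 difference of 0.57 ± 0.146 (SE; limma, adjusted p = 0.0459). The call lies close to the threshold. It was kept in 7 of 20 fits that each left out 1 library, with adjusted p between 0.0291 and 0.0971, and was lost without any 1 of the 5 SMD libraries, model replicates 2 to 5, control replicates 3 and 5 or prednisone replicates 3 and 4. The log2 fold change without model replicate 4 was 0.45 (adjusted p = 0.0707). With the replicate number as a block, the adjusted p was 0.0512.

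Control libraries held Scel at 10.3, 14.6, 12.6, 11.9 and 11.6 FPKM, all below the SMD libraries. Prednisone libraries held it at 8.97, 15.6, 12.3, 12.7 and 16.6 FPKM, which overlapped with SMD. The 95% interval of the log2 fold change of Scel between model and control was -0.34 to 0.26.

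Akap5 encodes an anchoring protein that holds protein kinase A and other enzymes at the membrane (chromosome 12, 76324891 to 76334153). It was at 31.1, 28.0, 28.1, 22.8 and 23.7 FPKM in the model libraries and at 32.8, 34.0, 28.7, 43.7 and 32.3 FPKM in the SMD libraries. 4 of the 5 SMD libraries were above all model libraries. The group means were 26.7 ± 3.42 and 34.3 ± 5.60 FPKM, with a log2 fold change of 0.34 ± 0.106 (limma, adjusted p = 0.0868), which did not pass. Akap5 was called in 1 of 8 alternatives, quantile normalization (limma, adjusted p = 0.0243), and in 0 of 20 fits without 1 library. Over these fits the adjusted p reached 0.189.

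The 250 bases upstream of the RefSeq start sites of Scel and Akap5 are shown because these were the members with the largest positive values in the SMD libraries against the model. They come from RefSeq on GRCm38.p6, plus strand, at chr14:103513091-103513340 for Scel and chr12:76324641-76324890 for Akap5, and overlap no annotated exon. Capitals mark matches, searched on both strands, to motifs known for TEAD (GGAATG), NKX2-1 (CAAGTG) and AP-1 (TGANTCA), and the full palindromic glucocorticoid response element was searched as well.
Scel: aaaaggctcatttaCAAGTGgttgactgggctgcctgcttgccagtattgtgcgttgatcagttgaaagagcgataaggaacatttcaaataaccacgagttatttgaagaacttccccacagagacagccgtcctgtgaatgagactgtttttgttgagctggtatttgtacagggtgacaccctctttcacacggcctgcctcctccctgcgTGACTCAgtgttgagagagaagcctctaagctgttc
Akap5: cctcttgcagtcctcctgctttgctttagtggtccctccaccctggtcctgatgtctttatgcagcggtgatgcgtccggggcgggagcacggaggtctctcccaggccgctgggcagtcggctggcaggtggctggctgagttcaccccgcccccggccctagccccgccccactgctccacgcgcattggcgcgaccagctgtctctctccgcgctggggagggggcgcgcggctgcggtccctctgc
The Scel window held 1 NKX2-1 motif, which starts 236 bases before the start site, and 1 AP-1 motif, which starts 36 bases before it and overlaps no other match. Among 32817 promoter windows of the same length, 11.6% held the NKX2-1 motif, 6.75% the AP-1 motif, 12.6% the TEAD motif and 0.00914% the glucocorticoid response element. The Akap5 window held none of these 4 motifs. Among the 10 windows searched for 8 members, 1 window of Igfbp2 held an AP-1 motif, which starts 39 bases before the start site. The remaining windows, apart from that of Scel, held none. A match or its absence describes these letters only.

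Rtkn2 encodes rhotekin 2 (chromosome 10, 67979570 to 68059740). It was at 42.3, 41.0, 51.1, 18.6 and 47.6 FPKM in the model libraries and at 27.5, 33.9, 29.5, 31.7 and 31.9 FPKM in the SMD libraries. 4 of the 5 model libraries lay above all SMD libraries, and model replicate 4 lay below them all. The log2 fold change was -0.29 ± 0.183 (limma, adjusted p = 0.406) and did not pass. Without model replicate 4 it was -0.54 (adjusted p = 0.0107), so this call turns on 1 library. Control libraries held Rtkn2 at 46.8, 45.0, 50.8, 46.5 and 36 FPKM and prednisone libraries at 48.7, 39.1, 41.7, 40.2 and 46.8 FPKM, all above the highest SMD library. The antisense gene Gm16212, with a median of 0.546 FPKM, shares 216 exon bases with Rtkn2, and its reads cannot be told apart here.

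Ager averaged 823 ± 127 FPKM under the model and 827 ± 106 FPKM in SMD libraries (interval of the log2 fold change -0.23 to 0.25). Its log2 fold change was 0.01, and -0.09 without model replicate 4. Pdpn was at 62.5 ± 8.58 and 58.5 ± 4.94 FPKM (interval -0.28 to 0.10), and Hopx at 272 ± 38.3 and 250 ± 25.1 FPKM (interval -0.33 to 0.10). Aqp5 was at 73.8 ± 10.9 and 81.3 ± 5.12 FPKM (interval -0.05 to 0.35), and Clic5 at 72.5 ± 6.54 and 80.3 ± 6.03 FPKM (interval -0.02 to 0.32). Igfbp2 ranged from 53.3 to 89.3 FPKM in SMD and from 58.5 to 83.6 FPKM in model libraries.

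**Figure D3:**
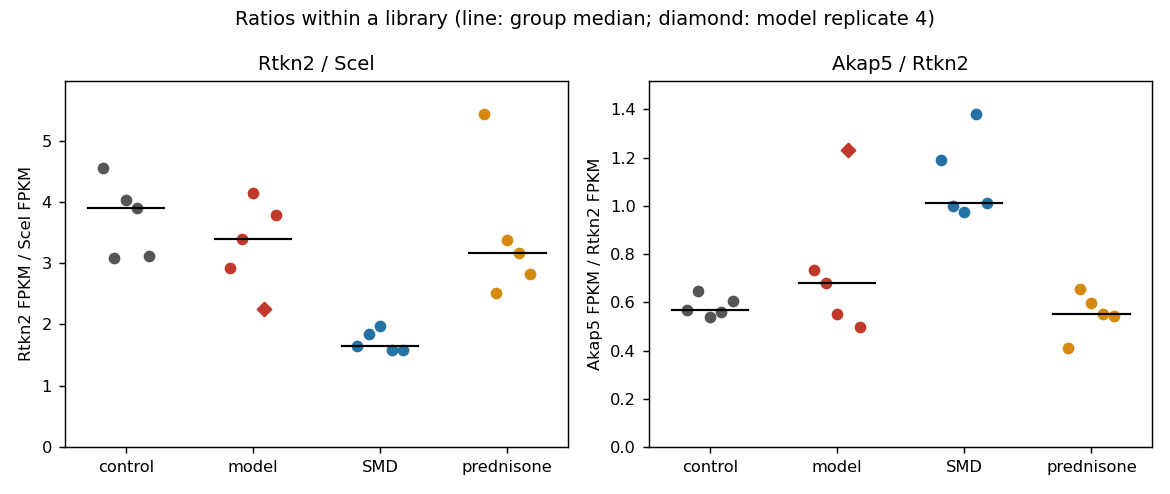
Ratio of Rtkn2 to Scel (left) and of Akap5 to Rtkn2 (right) in FPKM within each library (points, 5 per group), with the group median as a line; axes start at 0. The SMD ratios of Rtkn2 to Scel lie between 1.58 and 1.98, and all other libraries lie between 2.25 and 5.43.

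A ratio of 2 type 1 genes within a library does not depend on the scaling of that library. This pair of ratios was chosen after the values were seen, so it is described without a test. The ratio of Rtkn2 to Scel was 1.65, 1.84, 1.98, 1.58 and 1.59 in the SMD libraries. It was 2.92, 3.39, 4.15, 2.25 and 3.79 in the model libraries, from 3.09 to 4.55 in control and from 2.51 to 5.43 in prednisone libraries. The SMD libraries were thus below each of the other 15, model replicate 4 included. The ratio of Akap5 to Rtkn2 was 0.975 to 1.38 in SMD libraries, 0.498 to 0.734 in model replicates 1, 2, 3 and 5, 1.23 in model replicate 4, 0.541 to 0.645 in control and 0.411 to 0.655 in prednisone libraries. Relative to Ager, Scel was at 1.89% to 2.39% in SMD and 1.35% to 1.67% in model libraries, while control (1.22% to 1.92%) and prednisone libraries (1.27% to 2.30%) overlapped with SMD. Rtkn2 was at 3.12% to 4.39% of Ager in SMD, 3.02% to 5.59% in model, 5.37% to 6.49% in control and 5.35% to 6.90% in prednisone libraries.

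Of the 24 other type 1 genes, 1 rose between model and SMD, against 0.245% of all genes called higher, 0 fell and 14 had positive values, with a median of 0.00. The gene that rose was Wnt7a, a Wnt ligand, from 1.36 ± 0.529 to 2.69 ± 0.339 FPKM (log2 fold change 0.67 ± 0.134 SE; limma, adjusted p = 0.0205). Among 17 genes of the YAP, TAZ and NKX2-1 network, 1 fell and 0 rose, against 2.15% of all genes called either way. This was Tead2, a TEAD transcription factor, with a log2 fold change of -0.38 (adjusted p = 0.0424 in limma). Its call lies close to the threshold and was not followed in the alternative fits. Of the 12 alveolar type 2 markers, 0 were called, and 3 had an unadjusted p under 0.05, 1 higher and 2 lower in SMD.

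Summed levels of other marker lists are given beside these results. The 9 adipose markers summed to 19.7 to 48.0 FPKM in SMD, 40.6 to 485 FPKM in model, 77.0 to 942 FPKM in control and 21.4 to 123 FPKM in prednisone libraries. The 9 cardiac muscle markers summed to 94.6 to 145 FPKM in SMD and 129 to 253 FPKM in model libraries. The 7 mesothelial markers, of which Gpm6a is also in the list of other type 1 genes, come from cells that also express Pdpn. They summed to 106 to 139 FPKM in SMD and 131 to 177 FPKM in model libraries. Of the 6 tested, 5 were lower at an unadjusted p under 0.05, with a median log2 fold change of -0.37. Of these Msln fell, with an adjusted p close to the threshold (0.0421 in limma), and was not followed in the alternative fits. Of all 15106 genes, 288 were called lower in SMD than in model libraries. Under median-of-ratios scaling these were 61, and after quantile normalization 49. For unadjusted p-values, the share over all genes is given only for comparisons with control. In control libraries the mesothelial sum was 106 to 147 FPKM. Leukocyte markers summed to 74.5 to 93.7 FPKM in SMD and 64.7 to 120 FPKM in model libraries, and airway markers to 42112 to 56604 and 42643 to 58223 FPKM. The 8 fibroblast markers summed to 1780 to 2207 FPKM in SMD and 2401 to 2660 FPKM in model libraries, with 0 called in limma and 4 of 8 lower at an unadjusted p under 0.05. In the adipose, cardiac, lymphatic, airway and leukocyte lists 0 genes were called in limma, with 8, 3, 0, 2 and 0 at an unadjusted p under 0.05. The part of these tissues in the results above was not tested. The 10 markers of basal and squamous epithelium, another site of Scel, summed to 1.43 to 3.41 FPKM in SMD and 1.07 to 4.90 FPKM in model libraries, with Dsg3 at 0 in all libraries of both groups.

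The third comparison, prednisone against model, asks the same of the glucocorticoid group. Aqp5 fell, and the other 8 genes did not pass. Of the 9 genes, 1 was called in limma, against 8.04% of all genes called either way and 7.13% called lower, and none had groups that did not overlap, against 7.58% of all genes. The median log2 fold change of the 9 genes was -0.17, against -0.052 for all genes, and 3 of 9 were positive.

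Aqp5 (chromosome 15, 99590782 to 99594829) was at 76.0, 75.4, 87.1, 56.8 and 73.6 FPKM in the model libraries and at 46.7, 57.2, 58.8, 54.5 and 59.7 FPKM in the prednisone libraries. All but model replicate 4 lay above every prednisone library. The gene fell from 73.8 ± 10.9 to 55.4 ± 5.22 FPKM (SD, n = 5 each), a log2 difference of -0.40 ± 0.097 (SE; limma, adjusted p = 0.0181). It was -0.49 without model replicate 4 (adjusted p = 0.00233). The call ended without model replicate 3 (-0.34, adjusted p = 0.0529), with quantile normalization (-0.24, adjusted p = 0.174), with a correction for gene length and GC content (-0.28, adjusted p = 0.0942) and with only the groups compared in the fit (adjusted p = 0.0579). Control libraries held Aqp5 at 67.4, 67.3, 64.8, 52.2 and 57.3 FPKM, which overlapped with prednisone.

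Pdpn averaged 62.5 ± 8.58 FPKM under the model and 53.3 ± 1.98 FPKM in prednisone libraries, with a log2 fold change of -0.22 ± 0.091 (limma, adjusted p = 0.151). Without model replicate 4 it was -0.31 (adjusted p = 0.0149). Prednisone libraries were close to each other for Pdpn (51.3 to 55.8 FPKM) and Ager (679 to 764 FPKM). Ager had a log2 fold change of -0.17 (interval -0.41 to 0.07), Akap5 of -0.17 (-0.39 to 0.05), Hopx of -0.11 (-0.32 to 0.11) and Igfbp2 of -0.28 (-0.59 to 0.03). Positive values were those of Rtkn2 (0.18), Clic5 (0.13) and Scel (0.13). Under quantile normalization Clic5 was 0.29 (adjusted p = 0.0427), while without model replicate 4 Rtkn2 was -0.07.

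The 24 other type 1 genes had a median of -0.08 between prednisone and model libraries, with 4 positive values. Of the 24, 2 fell and 0 rose in prednisone libraries, against 7.13% of all genes called lower. They were Clic3, a relative of Clic5, from 102 ± 9.57 to 78.3 ± 7.86 FPKM (adjusted p = 0.0133 in limma), and Cryab, a small heat shock protein, from 152 ± 19.9 to 120 ± 9.84 FPKM (adjusted p = 0.0293). Among 12 known ligands and partners of RAGE, the product of Ager, 3 fell and 0 rose, against 7.13% of all genes called lower. The 3 were S100a6 (log2 fold change -0.34), S100a1 (-0.26) and S100a11 (-0.22), all S100 calcium-binding proteins. Tlr4, a toll-like receptor listed as a partner, was lower in SMD than in prednisone libraries (-0.32) and higher in prednisone than in control libraries (0.36). In the SMD libraries, 0 of these 12 were called against the model in limma, and 1 had an unadjusted p under 0.05. Of the 12 blood endothelial markers, 2 fell, Plvap and Emcn, against 7.13% of all genes called lower, and 10 did not pass. Their sum was 484 to 657 FPKM in prednisone and 609 to 706 FPKM in model libraries, which overlapped. The fibroblast markers Tcf21 and Inmt (-0.47 and -0.38) and the ciliated cell marker Tppp3 (-0.37) fell too. The part of these cells in the fall of Aqp5 was not tested.

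**Figure D4:**
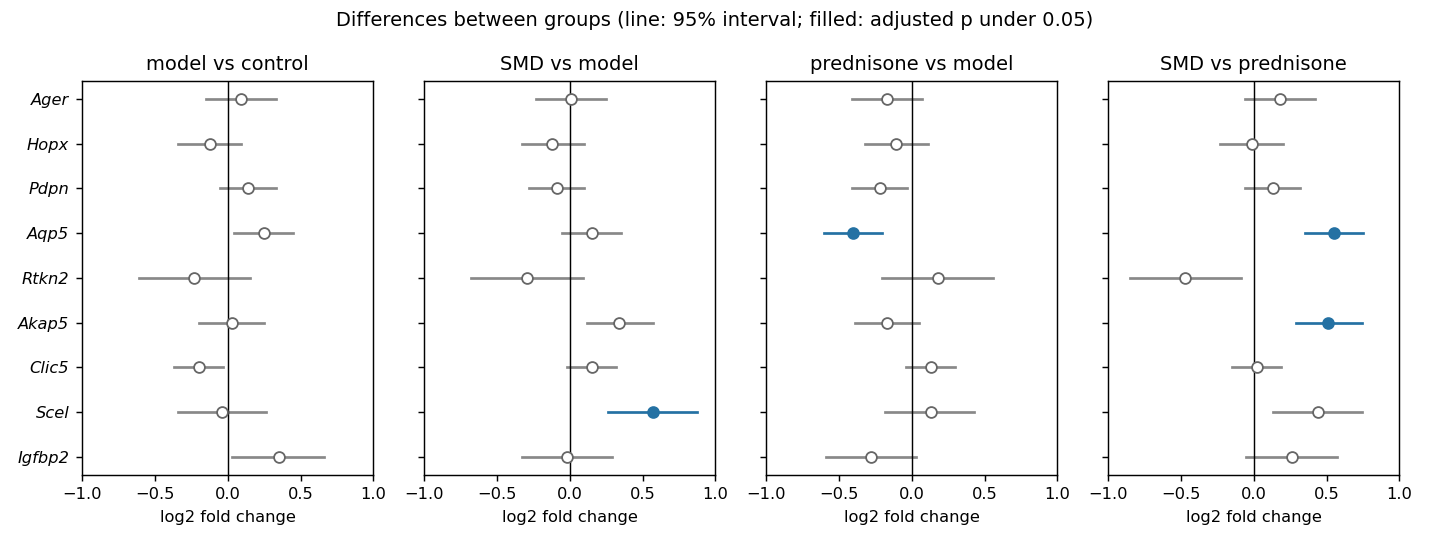
Log2 fold change of each gene (points) with its 95% interval (lines) in 4 comparisons; filled points passed an adjusted p under 0.05 in limma. Passing values are those of Scel between SMD and model (0.57), Aqp5 between prednisone and model (-0.40), and Aqp5 and Akap5 between SMD and prednisone (0.55 and 0.51).

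SMD was compared with prednisone directly, which tests the difference between the treated groups. Aqp5 and Akap5 were higher in SMD libraries, Scel and Rtkn2 had values of opposite sign that did not pass, and Ager, Hopx, Pdpn, Clic5 and Igfbp2 did not pass. Of the 9 genes, 2 were called, against 4.59% of all genes called either way and 2.16% called higher, and 3 had groups that did not overlap (Aqp5 and Akap5 higher, Rtkn2 lower), against 6.08%. The median log2 fold change of the 9 genes was 0.18, against -0.004 for all genes. Both groups were also compared with the model libraries above, so these comparisons share libraries.

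Aqp5 was at 82.1, 78.0, 74.3, 85.8 and 86.2 FPKM in the SMD libraries, all above the prednisone libraries, whose highest was 59.7 FPKM. Its log2 fold change was 0.55 ± 0.097 (SE, n = 5 each; limma, adjusted p = 0.00353). Akap5 was at 20, 25.6, 24.9, 22.2 and 25.4 FPKM in the prednisone libraries, all below the SMD libraries, with a log2 fold change of 0.51 ± 0.106 (adjusted p = 0.00936). Both genes were called in all 28 alternative fits, with adjusted p of 0.0129 or less for Aqp5 and 0.0321 or less for Akap5. Rtkn2 had a log2 fold change of -0.47 ± 0.183 (adjusted p = 0.157 in limma), and Scel of 0.44 ± 0.146 (adjusted p = 0.0944). Without model replicate 4, which is in neither group but enters the estimate of spread, the adjusted p of Rtkn2 was 0.00595. For Hopx the interval was -0.23 to 0.20, for Clic5 -0.15 to 0.19, for Pdpn -0.06 to 0.32, for Ager -0.06 to 0.42 and for Igfbp2 -0.05 to 0.57.

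The 24 other type 1 genes had a median of 0.13 between SMD and prednisone libraries, with 17 positive values. Of the 24, 2 were higher in SMD and 0 lower, against 2.16% of all genes called higher. They were Wnt7a, at 2.69 ± 0.339 and 1.09 ± 0.299 FPKM (log2 fold change 0.82 ± 0.134 SE; limma, adjusted p = 0.00198), and Clic3, at 102 ± 9.16 and 78.3 ± 7.86 FPKM (adjusted p = 0.0155). In the YAP, TAZ and NKX2-1 list, 1 of 17 was lower in SMD, against 4.59% of all genes called either way. It was the TEAD factor Tead4 (log2 fold change -0.44). In the same comparison 3 of 12 blood endothelial markers were higher in SMD (Aplnr, Plvap and Kdr), against 2.16% of all genes called higher. The median of the 12 was 0.26, with 12 positive values. Foxj1, a ciliated cell factor, was lower (-0.45), at 26.7 ± 4.61 FPKM in SMD and 36.6 ± 1.95 FPKM in prednisone libraries. The part of these genes in the differences of Aqp5 and Akap5 was not tested. Of 12 alveolar type 2 markers, 1 was higher, the chemokine Cxcl15 (0.58), and their median was -0.01.

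Each treated group was also compared with the control group. Between SMD and control, none of the 9 genes was called by limma, against 1.05% of all genes, with 6 at an unadjusted p under 0.05, against 14.5% of all genes. Aqp5 (log2 fold change 0.39, adjusted p = 0.0529) and Scel (0.53, adjusted p = 0.0833) lay higher in all SMD than in all control libraries, and Rtkn2 (-0.52, adjusted p = 0.167) lay lower. These 3 of 9 genes with groups that did not overlap compare with 4.66% of all genes. Without model replicate 4 in the estimate of spread, Aqp5 and Rtkn2 were called (adjusted p = 0.0279 and 0.0114). Akap5 had a log2 fold change of 0.37 (adjusted p = 0.0902) and Hopx of -0.24 (adjusted p = 0.284). Of the 24 other type 1 genes, 2 rose, Wnt7a (0.74) and Ndnf (0.78), a secreted neuron-derived factor. The adipose genes Car3, Fabp4 and Plin4 (-3.12, -3.04 and -1.18) and the cardiac gene Myl7 (-1.25) fell, while the type 2 chemokine Cxcl15 (0.64) rose, and their part in the values of the 9 genes was not tested.

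Between prednisone and control, none of the 9 genes was called by limma, against 3.57% of all genes, and 1 had an unadjusted p under 0.05, against 20.7% of all genes. No member had groups free of overlap, against 5.58% of all genes. The values ranged from -0.23 for Hopx to 0.09 for Scel. Of the 24 other type 1 genes, 0 rose and 2 fell, the caveolae genes Cav1 and Cav2 (log2 fold changes -0.37 and -0.38). Both are also expressed by endothelium, and 7 of the 12 blood endothelial markers fell in this comparison (among them Plvap, Ednrb, Car4 and Tek, with log2 fold changes of -0.61, -0.53, -0.52 and -0.43). Whether endothelial content bears on Cav1 and Cav2 was not tested. The ciliated cell factor Foxj1 was higher in prednisone (36.6 ± 1.95 FPKM) than in control libraries (26 ± 2.01 FPKM). Its log2 fold change was 0.48 (limma, adjusted p = 0.021).

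Genes with a profile like that of the 9 were ranked by Pearson r over the 20 libraries, as a description without a test, since all points share libraries and groups. The mean profile of the 9 genes was most like those of Gprc5a (r = 0.91), Slco3a1 (0.88), Krt7 (0.87), Tspan8 (0.86) and Mal2 (0.84). Of these, Gprc5a, Krt7, Tspan8 and Mal2 are in the list of other type 1 genes. The single genes most alike were Cldn18, a tight junction protein, for both Ager (0.91) and Pdpn (0.89), Cyp2b10 for Hopx (0.92), Gja5 for Aqp5 (0.91), Hbegf for Akap5 (0.91), Sema3e for Scel (0.86), Car2 for Igfbp2 (0.88), Pakap for Clic5 (0.83) and Bcar3 for Rtkn2 (0.80). Among the 9 themselves, r was highest between Ager and Pdpn (0.88), Aqp5 and Akap5 (0.80) and Akap5 and Scel (0.78), and lowest between Hopx and Igfbp2 (-0.24).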

How the data were processed

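Per the labels' protocols, total RNA of lung tissue was extracted with TRIzol, made into libraries with a NEBNext Ultra kit and sequenced as paired ends (Illumina NovaSeq). The authors deposited 1 table of FPKM values for 54532 genes and 20 libraries. GRCm38, fastp, HISAT2, featureCounts and DESeq2 are listed per the submitters' processing notes, with no versions. The program behind the FPKM values, the annotation and the strand setting: not given in the sources used here. FPKM values hold no counts, so depth is unknown and no counting interval is given. Groups were taken from the treatment labels and replicate numbers from the titles, because 1 treatment label, that of prednisone replicate 5, does not match its title.

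Symbols were paired with 54409 of the identifiers, and positions come from GENCODE M21 of GRCm38. The scale was log2(FPKM + 1), unscaled, which understates changes of low genes. Genes reaching FPKM 1 in 5 or more of the 20 libraries, 15106 in all, were tested with limma 3.58.1 in R 4.3.3 (eBayes with an intensity trend, 1 fit over all 20 libraries, 16 residual and 19.1 moderated degrees of freedom, two-sided, Benjamini-Hochberg adjustment over all genes of a comparison). The 95% intervals use the moderated degrees of freedom. No member failed the filter, so the permutation test planned for such members was not run. The fit was also run on simulated data, in which genes varied independently and each gene had the same spread in every library. That run does not cover a library such as model replicate 4. Alternatives were a pseudocount of 0.1, no filter, median-of-ratios and quantile scaling, the replicate number as a block, robust eBayes, a length and GC correction, only the groups compared, and leaving out each library. They were read for the 9 members and for the counts over all genes, not for single genes of the other lists. The members, the lists and the tests were chosen with earlier results of these data known. All 9 members are named whatever their result. In each other list, called genes are named, up to 4 per comparison. The most similar genes are the 5 protein-coding genes closest to the mean profile and 1 for each member, leaving out predicted genes. Promoters were matched for 8 of 9 members.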

Additional observations from a re-analysis of the deposited data

Results flagged for a closer look

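Clic5 was at 92.2 FPKM in prednisone replicate 5, against 73.5 to 78.6 FPKM in the other prednisone libraries. Its gap to the nearest library took 0.728 of the range of the group, above the critical value of 0.71 for 5 samples. It was 1 of 36 combinations of gene and group examined, and chance alone gives such a gap in about 1 of 20.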

How the results depend on the processing

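The number of the 9 genes called between SMD and model was 1 as reported, 0 with no filter, the replicate block or only the groups compared, and 2 with quantile normalization. Between prednisone and model it was 1, and 0 with the length and GC correction or only the groups compared; with quantile normalization the 1 gene called was Clic5 in place of Aqp5. Between SMD and control it was 0, and 1 with the length and GC correction, 2 with quantile normalization and 3 with only the groups compared. Fits without 1 library gave 0 to 1, 0 to 2 and 0 to 2 genes in these comparisons, and 2 to 3 between SMD and prednisone. Of the 4 values called, those of Aqp5 and Akap5 between SMD and prednisone stayed called in all 28 fits each. The call of Scel was lost in 3 of 8 alternatives and 13 of 20 fits without 1 library, and that of Aqp5 between prednisone and model in 3 of 8 and 1 of 20; the cause was not tested.

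Direction changed only in values that were not called. Under median-of-ratios scaling, then quantile normalization, then the length and GC correction, Akap5 between model and control was -0.03, -0.06 and 0.00, and Igfbp2 between SMD and model was 0.04, 0.10 and 0.06. Hopx between SMD and prednisone was 0.00 with either scaling. With quantile normalization, Pdpn between SMD and model was 0.04, Clic5 between SMD and prednisone -0.02 and between prednisone and control 0.00, and Rtkn2 between prednisone and control 0.01. Leaving out 1 library, the ranges that crossed 0 were -0.09 to 0.09 (Ager), -0.13 to 0.06 (Igfbp2) for SMD and model; -0.04 to 0.08 (Akap5), -0.34 to 0.02 (Rtkn2) and -0.11 to 0.08 (Scel) for model and control; -0.01 to 0.07 (Clic5) and -0.07 to 0.04 (Hopx) for SMD and prednisone; -0.09 to 0.01 (Clic5) and -0.01 to 0.09 (Pdpn) for SMD and control; -0.02 to 0.13 (Igfbp2) for prednisone and control; and -0.07 to 0.28 (Rtkn2) for prednisone and model.

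Counts over all genes also moved: between SMD and model 325 as reported, 122 with no filter, 101 under median-of-ratios scaling, 92 after quantile normalization, 128 with the length and GC correction and 53 with only the groups compared; between prednisone and model 1215, 748, 699, 325, 376 and 710 in the same order; between model and control 29, 2, 0, 0, 0 and 0. Without a filter 453, 35 and 259 were called between SMD and prednisone, SMD and control, and prednisone and control, against 693, 159 and 540, and 256 for the last with only the groups compared. Higher and lower calls were 37 and 288 between SMD and model, 40 and 61 under median-of-ratios scaling and 43 and 49 after quantile normalization, and 138 and 1077, 204 and 495, and 153 and 172 between prednisone and model; the median of all genes shifted by at most 0.06. Fits without 1 library called 0 to 111 genes between model and control, 76 to 528 between SMD and model, 608 to 1703 between prednisone and model, 457 to 722 between SMD and prednisone, 19 to 217 between SMD and control and 228 to 658 between prednisone and control. The counts of 111 and 528 were those without model replicate 4. The labels do not say whether same-numbered libraries were handled together, and low correlations cannot exclude it. Deviations of same-numbered libraries correlated between -0.18 and 0.237, with 6 of 30 pairs over 0.1. Their median was -0.004, against 0.004 for pairs with other numbers. Of 20 libraries, 2 correlated best with their own number. With the replicate block, Scel between SMD and model had the value 0.57 and an adjusted p of 0.0512, no other call of the 9 genes changed, and 0 genes were called between model and control.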

Other observations

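A transitional state between alveolar type 2 and type 1 cells is known from injury models in mice. Of 12 listed genes of this state, 2 were higher and 2 lower in SMD than in prednisone libraries by limma, against 4.59% of all genes called either way, and 8 did not pass. The median log2 fold change of the 12 was 0.22. Cdkn1a, a cell cycle inhibitor that glucocorticoids are known to induce, was at 10.5 ± 1.13 FPKM in SMD and 31.6 ± 9.33 FPKM in prednisone libraries (SD, n = 5 each; log2 fold change -1.46 ± 0.247 SE, adjusted p = 0.00265). Ccn2, a matricellular protein and YAP target, was also lower (-0.47). Hbegf, a ligand of the EGF receptor, was at 13.2 ± 2.52 and 7.48 ± 1.24 FPKM (0.74), and the keratin Krt19 at 77.8 ± 4.84 and 57.5 ± 5.58 FPKM (0.43). Hbegf also rose between model and SMD libraries (0.48, adjusted p = 0.0411 in limma). There 1 of the 12 rose and 0 fell, against 0.245% of all genes called higher. The call of Hbegf lies close to the threshold and was not followed in the alternative fits. Between SMD and control, Hbegf was also higher in SMD (0.61, adjusted p = 0.0237 in limma). Between prednisone and model, 0 of the 12 were called and 3 had an unadjusted p under 0.05. Between prednisone and control, 0 of the 12 were called as well. Cdkn1a thus passed only between SMD and prednisone, and an induction by prednisone was not shown.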
